A study of Caenorhabditis elegans with 2 samples.

Results

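Shared promoters between genes that point away from each other held 444 of the 3531 CEH-28 binding summits in the thresholded peak list. Members were taken from the autosomes alone, so 25 summits in windows of both strands on the X chromosome are left out. A summit was taken when it lay within the promoter window of at least 1 protein-coding gene on the plus strand and at least 1 on the minus strand. Each window reached 1000 bp upstream and 200 bp downstream from an annotated 5' end. Binding had been mapped by chromatin immunoprecipitation and sequencing (ChIP-seq) of CEH-28 carrying an eGFP tag, in whole Caenorhabditis elegans larvae at the L3 stage with pooled sexes. The strain, OP241, carries unc-119(ed3) on chromosome III and the integrated transgene wgIs241. The antibody field of the labels names ceh-28, and which promoter drives the tagged protein is not given in the sources used here. There was 1 group of 2 biological replicates, and no other strain or stage was compared. Of the other autosomal summits, 1146 lay in promoter windows of genes on 1 strand only, here called one-strand promoter summits, and 1391 lay outside promoter windows.

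CEH-28 belongs to the NK-2 class of homeodomain transcription factors and is known for its role in the pharyngeal neuron M4. A homeodomain reads short stretches of DNA, and NK-2 proteins are known to favour sites with the core AAGTG. Genes arranged head to head, with the 5' ends facing each other across a short stretch, can share 1 regulatory region, and in many animals such pairs are often housekeeping genes. A single summit in such a region cannot be assigned to either gene, so each is named here by its plus-strand and minus-strand genes, as in set-16/drr-2.

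Windows of 101 bp around 6 summits show what these regions contain. They belong to the strongest summits that recurred in both replicates, and they were picked to show the combinations of short sequences described further on. Capitals mark matches, on either strand, of AATCRAT (R stands for A or G) and of CTGCGTC. They also mark ACCGTAC, along with CGAGACC, further with GGAGCGC, and lastly with GCCGCAC. All sequence is RefSeq, assembly ce11, plus strand, written 5' to 3', and no window overlaps an annotated exon.
set-16/drr-2, chrIII:13643730-13643830: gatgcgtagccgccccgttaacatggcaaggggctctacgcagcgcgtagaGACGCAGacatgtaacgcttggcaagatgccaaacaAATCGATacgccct
cap-2/gmps-1, chrII:10868920-10869020: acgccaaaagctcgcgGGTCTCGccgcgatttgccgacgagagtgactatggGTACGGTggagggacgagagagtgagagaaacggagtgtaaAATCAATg
mut-15/fib-1, chrV:15002276-15002376: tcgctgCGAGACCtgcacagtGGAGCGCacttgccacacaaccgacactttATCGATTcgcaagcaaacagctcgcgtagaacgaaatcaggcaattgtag
kel-3/cdk-5, chrIII:13466366-13466466: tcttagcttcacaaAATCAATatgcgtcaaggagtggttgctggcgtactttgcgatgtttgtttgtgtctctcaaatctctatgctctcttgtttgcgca
lin-54/rpl-12, chrIV:13240660-13240760: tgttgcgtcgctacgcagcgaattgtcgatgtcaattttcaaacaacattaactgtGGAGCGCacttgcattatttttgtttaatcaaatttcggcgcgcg
klc-1/let-70, chrIV:11082970-11083070: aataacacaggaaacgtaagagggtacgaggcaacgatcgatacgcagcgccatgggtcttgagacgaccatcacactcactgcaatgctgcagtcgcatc
The set-16/drr-2 window held both AATCRAT and CTGCGTC, the mut-15/fib-1 window held AATCRAT with CGAGACC and GGAGCGC, and the klc-1/let-70 window held none of the 6.

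The windows that chose the summits nearly fix the order of the genes. In 441 of the 444 the nearest minus-strand 5' end lay to the left of the nearest plus-strand one, so that the genes pointed away from each other, and in 3 the 5' ends overlapped. The summit lay between the 5' ends in 393 and at or downstream of 1 of them in 51. Intergenic sequence held 367 summits, exons outside coding sequence 49, introns 25 and coding exons 3. In all, 416 summits served exactly 2 genes and 28 served 3 or more. The 444 summits fell on 429 sets of genes, since 15 sets had 2 summits each, and they served 883 genes.

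The regions were compact. The spacing of the nearest 5' ends had a median of 519.5 bp, with an interquartile range of 332 to 779 bp. The summit lay a median of 145 bp from the nearer 5' end and 365.5 bp from the farther one, and one-strand promoter summits lay a median of 227.5 bp from the nearest 5' end. On the plus-strand side the median distance was 232 bp, and on the minus-strand side 233 bp. Of the 393 summits between the 5' ends, 111 (28.2%) lay in the middle 20% of the interval. The outermost 20% on the minus-strand side held 58 (14.8%) and that on the plus-strand side 48 (12.2%). Some of this shape follows from the window, which reaches 1000 bp from each gene. At the edge of the rule, 24 summits had the farther 5' end at 901 to 1000 bp, with a median signal of 109.5 and a range of 75.3 to 245. Another 16 one-strand summits missed the rule because the opposite 5' end lay 1001 to 1100 bp away, and their median was 112.8, with a range of 70.9 to 464.

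Promoter sequence shared by both strands was bound more densely than promoter sequence of 1 strand. The autosomes held 2211244 bp of the first and 20127686 bp of the second. Summits numbered 201 per Mb in shared sequence and 56.9 per Mb in one-strand sequence, a ratio of 3.53 (95% interval 3.15 to 3.94, exact binomial test, two-sided, p = 4.05e-91). The test took account of the length of sequence alone. Shared sequence lies in windows of at least 1 gene on each strand, and distance to a 5' end was not matched. The ratio is therefore not a comparison per gene or at equal distance. The summits made up 27.9% of the 1590 autosomal promoter summits. With windows of 500 bp upstream to 100 bp downstream the ratio was 4.90, and with 2000 bp upstream it was 2.72.

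Seen from the genes, autosomal pairs of head-to-head neighbours were counted when the 5' ends lay at most 2000 bp apart. Of 2378 such pairs, 484 had a summit, or 20.4% (95% exact interval 18.8% to 22.03%). Summits were counted from 200 bp inside 1 gene to 200 bp inside the other. Pairs with a summit had a median spacing of 608 bp, and pairs without one 678 bp. The share was highest for pairs 251 to 500 bp apart, at 147 of 515 (28.5%, interval 24.7% to 32.7%). Pairs at most 250 bp apart had a summit in 53 of 360 cases (14.7%, interval 11.2% to 18.8%), and those 1001 to 1500 bp apart in 72 of 444 (16.2%). Counted per length, including those 200 bp at each end, summits numbered 0.384 per kb in pairs 251 to 500 bp apart. They numbered 0.267 per kb in the closest pairs and 0.108 per kb in those 1501 to 2000 bp apart. More than 1 summit was counted in 26 pairs.

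**Figure D1:**
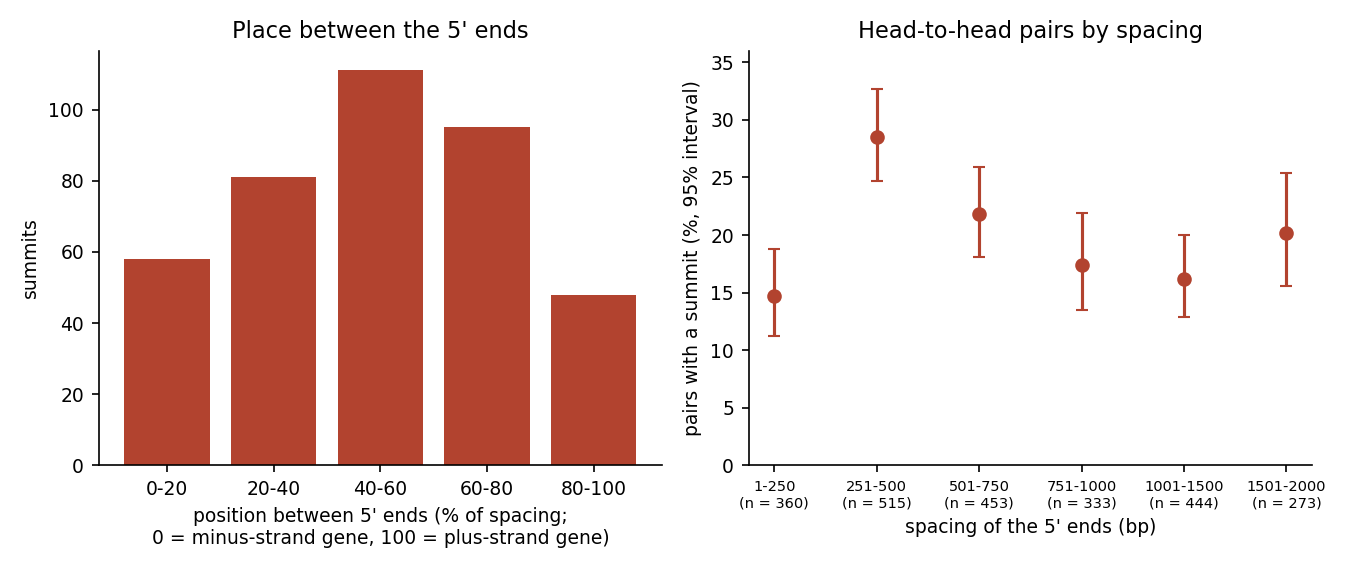
Left, number of summits in each 20% step from the minus-strand 5' end (0) to the plus-strand 5' end (100), for the 393 summits between the 5' ends. Right, percent of autosomal head-to-head gene pairs with a summit by spacing in bp, with 95% exact intervals. The middle step holds 111 summits and the outer steps 58 and 48, and pairs 251 to 500 bp apart have the highest share, at 28.5%.

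The signal, which is the peak caller's own value per peak as deposited, ranged from 65.9 to 1317 among the 444, with a median of 115.4. The median was 101.5 for one-strand promoter summits and 116.4 for autosomal summits outside promoters. The median of all autosomal peaks was exceeded by 234 of 444 shared-promoter summits (52.7%) and 514 of 1146 one-strand summits (44.9%), which gave an odds ratio of 1.37 with a 95% interval of 1.09 to 1.72 (adjusted p = 0.00683 by a two-sided Fisher's exact test, over 4 comparisons). Very strong peaks were few, however, with 4 shared-promoter summits among the 100 strongest peaks of the whole list. One-strand promoter summits held 16 of the 100 and autosomal summits outside promoters 59. These 3 classes numbered 444, 1146 and 1391 of all 3531 peaks. All p-values here describe the peaks of these 2 replicates, since peaks are not independent samples.

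Both replicates were examined for each summit. A peak was called strong in a replicate when it overlapped 1 of the 3531 peaks of highest signal in that replicate's own list. Replicate 1 had a strong peak at 411 of the 444 and replicate 2 at 385, and 353 were strong in both (79.5%), against 812 of 1146 one-strand summits (70.9%). This gave an odds ratio of 1.60 with a 95% interval of 1.22 to 2.10 (adjusted p = 0.000809 by Fisher's exact test). Among peaks above the median signal the order turned, with 236 of 240 shared-promoter summits and 519 of 522 one-strand summits strong in both (odds ratio 0.342, Fisher's exact test, adjusted p = 0.215). Of the weakest 25% of the 444, 37 of 111 were strong in both replicates, and of the strongest 25%, 110 of 111 were. Signals had a median of 66.6 in replicate 1 (range 20.4 to 673) and 56.5 in replicate 2 (range 15.6 to 645). Across the 440 with a partner in each list the Spearman rho was 0.78, a description across peaks of a list that was itself made from both replicates. Where 2 summits lay close together, as at mut-15/fib-1, both took the same replicate peak.

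**Figure D2:**
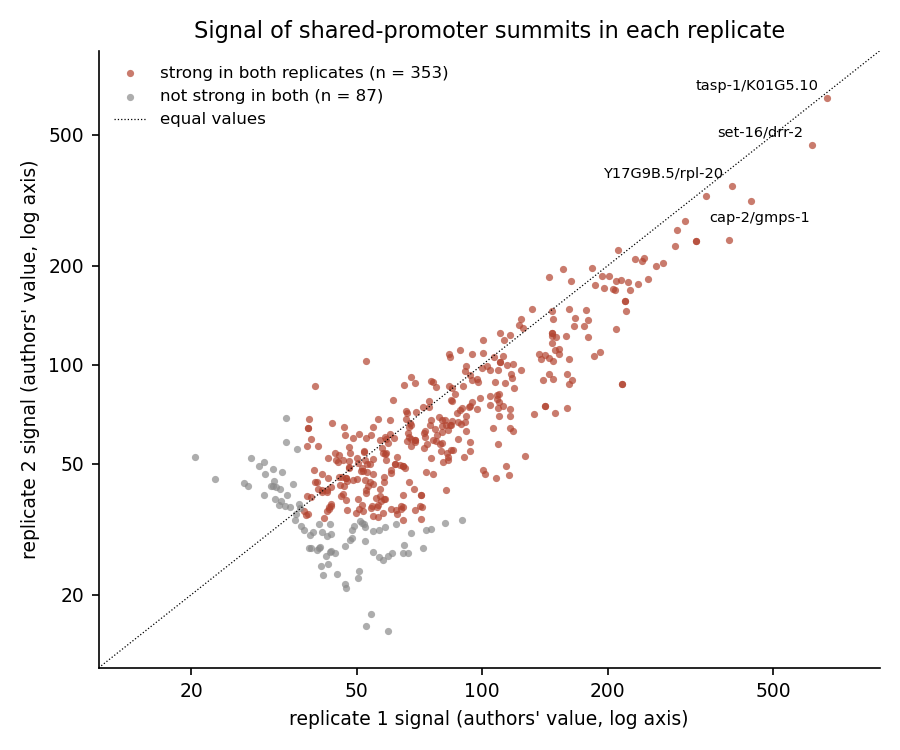
Signal of each shared-promoter summit in replicate 1 (x) and replicate 2 (y), both as the authors' values on log axes, for the 440 summits with a partner in both lists. Red points, 353 summits strong in both replicates, and grey points, 87 others; tasp-1/K01G5.10 stands highest in both, and most points lie under the dotted line of equal values.

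The strongest shared promoter lay between tasp-1, which encodes a threonine aspartase, and K01G5.10 (chromosome III, 10758980 to 10759428). Its signal was 1317 in the thresholded list, 673 in replicate 1 and 645 in replicate 2. It ranked 28th of all peaks, and 44th and 17th in the replicates. The next, between set-16, a histone methyltransferase gene of the MLL family, and drr-2, a gene related to a translation initiation factor, had 1077 in the thresholded list, 618 in replicate 1 and 465 in replicate 2. It lay at 13643568 to 13643979 of chromosome III, 136 bp from the 5' end of set-16 and 210 bp from that of drr-2. These 2 stood apart, since the third, between the actin capping gene cap-2 and the GMP synthase gene gmps-1, had 756, with 443 in replicate 1 and 315 in replicate 2.

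The promoter of rpl-20, which encodes a protein of the large ribosomal subunit, and Y17G9B.5 had a signal of 749.6, with 397 in replicate 1 and 349 in replicate 2. The promoter of sre-50, a chemoreceptor gene, and C50E10.1 had 630.3, with 391 in replicate 1 and 240.2 in replicate 2. The promoter of mut-15, needed for RNA interference, and fib-1, which encodes the nucleolar methyltransferase fibrillarin, had 566, with 326 in replicate 1 and 239 in replicate 2. Each of these was higher in replicate 1, as were 331 of the 440. The promoter of klc-1, a kinesin light chain gene, and let-70, a ubiquitin-conjugating enzyme gene, had 552, with 294 in replicate 1 and 257 in replicate 2. Its 5' ends were far apart, with the summit 715 bp from klc-1 and 767 bp from let-70. The promoter of hsp-60, the mitochondrial chaperonin gene, and Y22D7AL.10 had 518, with 291 in replicate 1 and 229 in replicate 2.

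Several strong pairs joined genes of unlike function. The summit between the kelch gene kel-3 and cdk-5, a cyclin-dependent kinase gene known from neurons, had a signal of 454, with 261 in replicate 1 and 199.5 in replicate 2. The summit between nduv-3, a respiratory complex subunit gene, and mdf-2, a spindle checkpoint gene, had 449, with 242 in replicate 1 and 207 in replicate 2. The summit between cct-1, a subunit gene of the cytosolic chaperonin, and mig-5, a Dishevelled gene of Wnt signalling, had 439.9, with 232 in replicate 1 and 209.9 in replicate 2. These 3 ranked between 213th and 233rd of all peaks. Further down, the summit between lin-54, the DNA-binding subunit gene of the DREAM complex, and rpl-12 had 367, with 196 in replicate 1 and 171 in replicate 2. The summit between spk-1, an SR protein kinase gene, and rheb-1, a GTPase gene upstream of TOR, had 343, with 163 in replicate 1 and 179 in replicate 2. It was higher in replicate 2, unlike the others named so far. The summit between prp-8, a core gene of the spliceosome, and bath-42 closed the 20 strongest pairs with a gene symbol on each strand, at 309, with 161 in replicate 1 and 148 in replicate 2.

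Genes served by these summits were compared with all 5485 autosomal genes that have a shared promoter window, of which 883 were served (16.1%). The 26 lists of genes are descriptions with no test. They were made by gene symbol and are not complete, so shares and leading genes hold within each list. Cytosolic ribosomal proteins, the building blocks of the ribosome, had the highest share, with 38 of 53 genes (71.7%) served by 35 summits. The median signal of these was 123.7, against 115.4 for all 444, and 31 of the 35 were strong in both replicates. After rpl-20, the strongest were rpl-15, whose promoter is shared with K11H12.8, at a signal of 579.5 (307 in replicate 1 and 274 in replicate 2), and rps-12, whose promoter is shared with ska-3, at 436 (251 in replicate 1 and 182 in replicate 2). The weakest was rpl-4 at 73.2, with 34.0 in replicate 1 and 40.2 in replicate 2. In 3 shared promoters both genes were ribosomal, namely rpl-24.1/rps-10 (signal 121), rps-30/rpl-39 (96.7) and rpl-36/rps-14 (94.2). Of the 32 summits with a ribosomal gene on 1 strand only, 11 were nearer to that gene than to its partner, with a median distance of 310 bp to the ribosomal gene and 177 bp to the partner.

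Other parts of the machinery for making and folding proteins also had shares above the 16.1%. Translation factors were served in 11 of 23 cases (47.8%). The highest were iff-2, a gene of eIF5A, at a signal of 435 (211 in replicate 1 and 223 in replicate 2), and eef-2, an elongation factor gene, at 252 (148 in replicate 1 and 103 in replicate 2). Chaperones were served in 15 of 34 cases (44.1%). After hsp-60 and cct-1, hsp-90 stood at 400.4 (215 in replicate 1 and 180.5 in replicate 2), and the chaperonin subunit gene cct-8 at 386 (209 in replicate 1 and 180.1 in replicate 2). Mitochondrial ribosomal proteins were nearer to the background, with 7 of 30 (23.3%), led by mrps-28 at 293. Aminoacyl-tRNA synthetases, which charge tRNAs, stood at 3 of 15, namely ears-2 (254), aars-1 (157) and fars-1 (71.7).

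Genes of RNA processing and of the nucleus followed. Spliceosome and SR protein genes were served in 13 of 28 cases (46.4%), led by prp-8 and by the pair rsp-1/rsp-2, in which each gene encodes an SR splicing protein. The rsp-1/rsp-2 summit had a signal of 274, with 132 in replicate 1 and 148 in replicate 2. Genes of the exosome and nucleolus stood at 5 of 12 (41.7%), with fib-1 first, followed by exos-4.1 (113), nol-58 (110.1), nol-10 (96.8) and exos-3 (86.4). RNA polymerase, Mediator and TFIID genes stood at 9 of 22 (40.9%), led by mdt-19 (259), mdt-26 (226) and taf-4 (160.3). Chromatin regulators stood at 7 of 20. The highest of the list after set-16 was swsn-6, a SWI/SNF subunit gene, at 376 (206 in replicate 1 and 170.0 in replicate 2). Of chromatin genes outside the list, mrg-1 (400.6) and hat-1 (382) stood higher than swsn-6. Nuclear pore genes stood at 5 of 17 (29.4%), led by npp-3 (244) and npp-14 (242). DNA replication and cell cycle genes stood at 7 of 32 (21.9%). The highest was cdk-5, listed by its symbol though known from neurons, followed by rfc-4 (189).

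Lists for turnover, transport and energy were counted too. Vacuolar ATPase genes, which encode the proton pump of acidic organelles, stood at 3 of 8 (37.5%), namely vha-8 (292), vha-1 (140.3) and vha-17 (91.9). Small GTPases of membrane traffic stood at 6 of 16 (37.5%), led by rab-18 (278) and arf-6 (202). Ubiquitin conjugation genes stood at 6 of 17 (35.3%), led within the list by ubc-6 (199). The list left out let-70, whose summit was stronger (552). Respiratory chain and ATP synthase genes stood at 6 of 23 (26.1%), led within the list by cox-6B (291) and atp-1 (271). This list left out some subunit genes, such as nduv-3 (449). Proteasome subunits stood at 6 of 24, led by rpn-3, whose promoter is shared with the chaperone gene hsp-110 (244).

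Large families tied to the environment, the cuticle or the germ line had shares under the background. Chemoreceptor genes, which encode receptors for odours and tastes, were served in 9 of 295 cases (3.05%), C-type lectin genes in 0 of 83, F-box genes in 7 of 104 (6.73%), cuticle collagen genes in 3 of 45 (6.67%), cytochrome P450, UGT and GST genes in 4 of 46 (8.70%) and major sperm protein genes in 0 of 15. The partner could be a gene of another kind, as at rpl-5/col-38 (signal 135) and at nhr-47/dnj-19 (268), where the summit lay 6 bp from nhr-47. Nuclear hormone receptor genes stood at 6 of 45 (13.3%). Neuropeptide genes stood at 3 of 16 (18.8%), namely nlp-31 and nlp-34, which share 1 promoter (96.5), and nlp-4 (86.4). Of the homeobox genes, 2 of 8 were served, ceh-100 (196) and ceh-7 (97.8), and of the bHLH genes 1 of 5, aha-1 (331). The ceh-100 summit overlapped no peak in replicate 1.

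**Figure D3:**
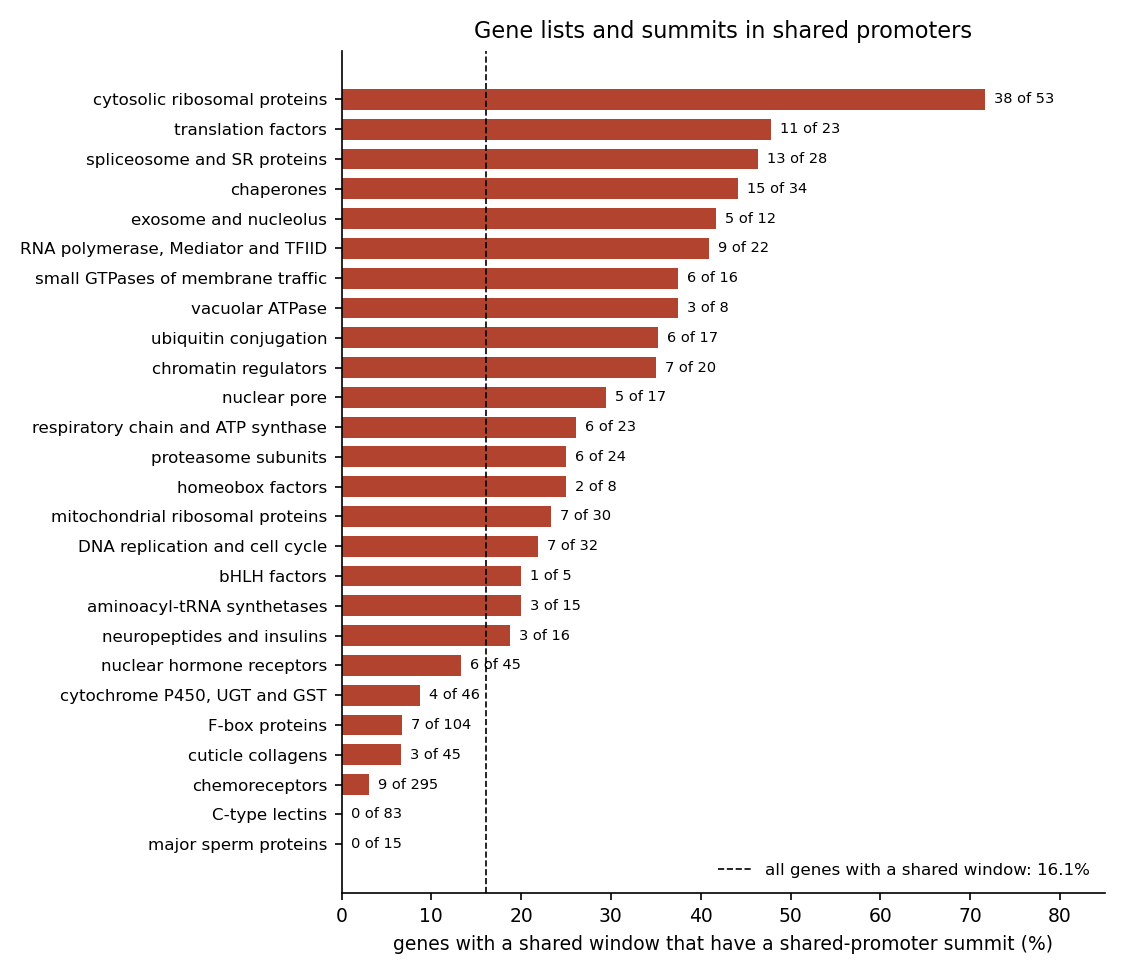
Percent of the genes of each list with a shared promoter window that had a shared-promoter summit, with the counts beside the bars; the dashed line is the share among all 5485 such genes (16.1%). Cytosolic ribosomal protein genes stand at 71.7%, and chemoreceptor genes at 3.05%.

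AATCRAT and CTGCGTC, both known from earlier work on these peaks to be frequent at their summits, were looked for within 50 bp. AATCRAT lay at 133 of 444 shared-promoter summits (30.0%) and 490 of 1146 one-strand summits (42.8%), which gave an odds ratio of 0.573 with a 95% interval of 0.449 to 0.728 (adjusted p = 1.02e-05 by Fisher's exact test). The odds ratio was 0.537 in replicate 1 alone. In replicate 2 alone it missed the threshold, with 127 of 413 against 422 of 1151 (odds ratio 0.767, Fisher's exact test, adjusted p = 0.0614). Shared-promoter summits were richer in G and C, with a median of 43.6% within 50 bp against 39.6% at one-strand summits. Restricted to windows of 35% to 50% GC, a comparison added after the data were seen, AATCRAT lay at 64 of 253 and 174 of 547, and the difference missed the threshold (odds ratio 0.726, Fisher's exact test, adjusted p = 0.0673). AATCRAT was still more frequent at shared-promoter summits than in windows centred 500 bp to each side, which held it in 78 of 888 (8.78%). That odds ratio was 4.44, with an interval of 3.23 to 6.13 (p = 5.81e-22 by Fisher's exact test), but the sequence had been chosen on these same peaks.

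Clusters of AATCRAT were rare in shared promoters. Within 200 bp of the summit, 4 or more copies were found at 12 of 444 (2.70%), with a median signal of 145, and at 128 of 1146 one-strand summits (11.2%), with a median signal of 184. Across peaks the number of copies and the signal had a Spearman rho of 0.06 in shared promoters and 0.15 at one-strand summits. GC percent and signal had a rho of 0.29 in shared promoters and 0.15 at one-strand summits. By gene list, with no test, AATCRAT lay at 4 of the 35 ribosomal protein summits and at 0 of the 15 chaperone summits, but at 3 of the 7 mitochondrial ribosomal protein summits and at 3 of the 6 for small GTPases of membrane traffic. CTGCGTC lay at 35 shared-promoter summits (7.88%) and 122 one-strand summits (10.6%), an odds ratio of 0.718 (Fisher's exact test, adjusted p = 0.111), and in 9 of 888 flanking windows (1.01%). AATCRAT lay at 9 of the 35 summits with CTGCGTC, set-16/drr-2 among them, and at 124 of the 409 without it. TYAAGTG (Y is C or T), a site known for NK-2 proteins, lay at 6 summits (1.35%) and in 12 of 888 flanking windows (1.35%). In the comparison of all 7-mers described further on, CAAGTGC, which holds the core AAGTG, lay at 23 shared-promoter summits (5.18%) and 17 one-strand summits (1.48%). The odds ratio was 3.60 (Fisher's exact test, adjusted p = 0.0328). GCAAGTG, which overlaps it, lay at 25 (5.63%) and 21 (1.83%), an odds ratio of 3.18 (Fisher's exact test, adjusted p = 0.0413).

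A comparison of all 8192 7-mers found sequences that set the summits of shared promoters apart from those of one-strand promoters. In the windows of 101 bp, 40 of the 7-mers differed (0.488%, Fisher's exact test with Benjamini-Hochberg adjustment), 34 more frequent in shared promoters and 6 less. At an unadjusted p under 0.05 there were 559. The first was ACCGTAC, read on either strand, at 34 shared-promoter summits (7.66%) and 6 one-strand summits (0.524%), an odds ratio of 14.7 (adjusted p = 3.03e-10, Fisher's exact test). CGAGACC lay at 39 (8.78%) and 29 (2.53%), an odds ratio of 3.69 (adjusted p = 0.00048, exact). GGAGCGC lay at 31 (6.98%) and 20 (1.75%), with an odds ratio of 4.19 (exact, adjusted p = 0.000907), and GCCGCAC at 23 (5.18%) and 12 (1.05%), with an odds ratio of 5.06 (adjusted p = 0.00229). Many of the others overlap these by a shift of 1 or more bases, such as TACCGTA, which overlaps the first, and GCGAGAC, which overlaps the next. Less frequent were ATCGATA, at 61 (13.7%) and 273 (23.8%), and ATCAATA and AATCAAT, which overlap AATCRAT.

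The 4 sequences were also counted where no summit lay. At the middle of the 1894 head-to-head pairs without a summit, windows of the same size held ACCGTAC in 17 (0.898%), CGAGACC in 41 (2.16%), GGAGCGC in 29 (1.53%) and GCCGCAC in 12 (0.634%). In the flanks of the shared-promoter summits the shares were 0.450%, 1.69%, 0.676% and 0.563%. Together 111 of the 444 had at least 1 of the 4. These 111 had a median signal of 136 and a median GC of 48.5%, against 113 and 41.6% for the other 333. AATCRAT was found at 17 of the 111 and at 116 of the 333. The 4 sequences had been picked on the list made from both replicates, so the runs that follow are not independent tests of them. ACCGTAC differed past the threshold in each replicate alone, with adjusted p = 9.75e-10 for replicate 1 and 2.42e-05 for replicate 2 (Fisher's exact test). CGAGACC did so as well, with adjusted p = 0.0124 in replicate 1 and 0.00431 in replicate 2 by the same exact test. GGAGCGC passed in replicate 1 (0.0141) and missed the threshold in replicate 2 (odds ratio 2.88, exact, adjusted p = 0.131). GCCGCAC likewise passed in replicate 1 (0.000935) and missed in replicate 2 (odds ratio 3.88, exact, adjusted p = 0.0516). Against the 370 one-strand summits no farther from a 5' end than the shared-promoter median, 9 of the 40 7-mers remained, ACCGTAC and CGAGACC among them. GGAGCGC and GCCGCAC missed the threshold there, with odds ratios of 3.69 and 4.54 (Fisher's exact test, adjusted p = 0.188 and 0.256). Restricted to 35% to 50% GC, 2 of the 40 remained. ACCGTAC was then at 18 of 253 and 2 of 547 (Fisher's exact test, adjusted p = 0.000521), while CGAGACC, at 14 and 7, missed the threshold (adjusted p = 0.428) in these fewer windows, at an odds ratio of 4.36. GGAGCGC and GCCGCAC missed it there too, with odds ratios of 4.49 and 4.68 (exact, adjusted p = 0.144 and 0.526).

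**Figure D4:**
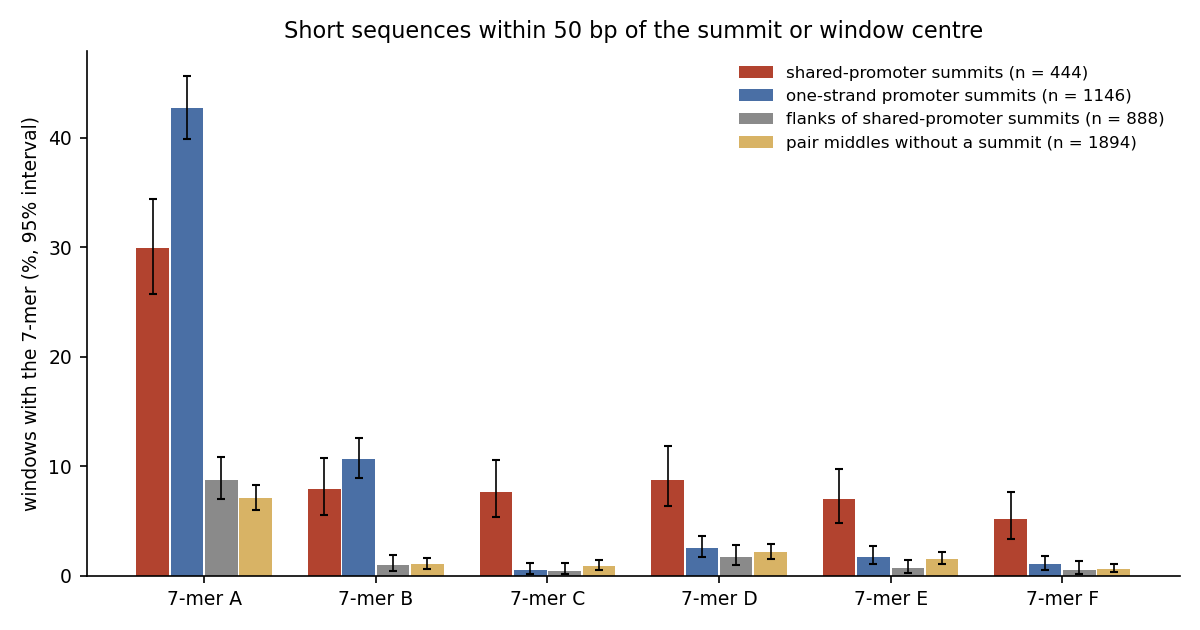
Percent of 101 bp windows that hold each 7-mer, with 95% exact intervals, at shared-promoter summits, one-strand promoter summits, flanks of shared-promoter summits and the middles of head-to-head pairs without a summit. A is AATCRAT, B is CTGCGTC, C is ACCGTAC, D is CGAGACC, E is GGAGCGC and F is GCCGCAC; A is highest at one-strand promoter summits, and C to F are highest at shared-promoter summits.

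The bases around these sequences were partly alike from one promoter to another. They are shown for some of the matches, picked after they were seen to display the shared bases, with the 7-mer in capitals and 15 bases to each side, on the strand given, 5' to 3', ce11. Of the 34 matches of ACCGTAC, 10 had GAAAC from 12 to 8 bases before it.
pdtf-1/T26A8.4, chrIV:8432974-8433010, minus strand: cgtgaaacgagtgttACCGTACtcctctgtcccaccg
dpm-3/rps-23, chrIV:12391292-12391328, plus strand: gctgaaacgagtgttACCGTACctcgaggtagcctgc
C14B9.10/rpl-21, chrIII:8130502-8130538, minus strand: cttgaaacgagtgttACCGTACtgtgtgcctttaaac
scc-1/rpn-5, chrII:4698441-4698477, plus strand: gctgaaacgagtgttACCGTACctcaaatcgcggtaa
Y55F3AR.2/cct-8, chrIV:1094349-1094385, minus strand: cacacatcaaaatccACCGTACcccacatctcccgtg
The first 4 shared a run before the 7-mer that the fifth did not have. Their signals were 259 at pdtf-1/T26A8.4, 174 at dpm-3/rps-23, 119 at C14B9.10/rpl-21 and 71.2 at scc-1/rpn-5, and 386 at Y55F3AR.2/cct-8.

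CGAGACC also had recurring bases before it. Of its 39 matches, 27 had T, C and G at 6, 5 and 4 bases before it and G directly before it.
cap-2/gmps-1, chrII:10868921-10868957, minus strand: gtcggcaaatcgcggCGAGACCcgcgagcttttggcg
M03C11.3/hat-1, chrIII:10407430-10407466, plus strand: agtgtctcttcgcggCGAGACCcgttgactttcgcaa
rpn-3/hsp-110, chrIII:8447150-8447186, plus strand: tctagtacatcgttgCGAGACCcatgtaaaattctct
top-2/npp-3, chrII:11874878-11874914, plus strand: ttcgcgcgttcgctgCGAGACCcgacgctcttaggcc
Among their genes are rpn-3, a proteasome subunit gene, and top-2, a topoisomerase gene. Their signals were 756 at cap-2/gmps-1, 382 at M03C11.3/hat-1, 244 at rpn-3/hsp-110 and 244 at top-2/npp-3. Of the 39 summits with CGAGACC, 34 were strong in both replicates, as were 319 of the 405 without it. The counts for GCCGCAC were 21 of 23 with it and 332 of 421 without it. The order was the other way for ACCGTAC, with 26 of 34 and 327 of 410, and for GGAGCGC, with 22 of 31 and 331 of 413.

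GGAGCGC, whose excess over one-strand summits missed the threshold in replicate 2 alone, was followed by a shared run in many matches. Of its 31 matches, 16 had C at 4 and T at 1 base before it, and TTGC from the third to the sixth base after it.
mut-15/fib-1, chrV:15002282-15002318, plus strand: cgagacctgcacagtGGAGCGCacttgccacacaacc
lin-54/rpl-12, chrIV:13240701-13240737, plus strand: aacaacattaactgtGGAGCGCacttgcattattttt
fbxa-90/efl-1, chrV:16965857-16965893, plus strand: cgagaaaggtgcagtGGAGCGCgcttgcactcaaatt
tiar-2/vps-2, chrII:12768399-12768435, minus strand: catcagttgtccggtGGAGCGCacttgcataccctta
rpl-43/Y48B6A.1, chrII:14154526-14154562, minus strand: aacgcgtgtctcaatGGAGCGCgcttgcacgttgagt
The signals were 566 at mut-15/fib-1, 367 at lin-54/rpl-12, 218 at fbxa-90/efl-1, 176 at tiar-2/vps-2 and 168 at rpl-43/Y48B6A.1. The efl-1 gene encodes an E2F factor. A match describes letters in the window, and which protein binds them was not measured.

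Along the genome the summits were spread over all 5 autosomes, in a share of promoter summits between 24.5% on chromosome II (68 summits) and 31.6% on chromosome III (112 summits). Their median signal was highest on III, at 131, and lowest on II, at 108.8. Chromosome arms, taken as the outermost 25% on either side, held 42.1% of them and 46.3% of one-strand promoter summits. Genes of non-coding RNA lay within 200 bp of some summits. Unclassed ncRNA genes did so at 58, snoRNA genes at 3, piRNA genes at 3 and genes of tRNA, miRNA, snRNA, lincRNA and antisense RNA at 1 each. The same was not counted for other summits, so these numbers cannot be called high or low.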

How the data were processed

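ChIP-seq peak lists of 2 biological replicates, in 1 group, were used. Library fragments measured 150 to 350 bp, per the labels. The deposited lists were a relaxed list of 30000 peaks per replicate and a thresholded list of 3531, on ce11. Signal is the value that the authors' peak caller gave each peak, as deposited, and it was used only to describe, rank or filter within a list. The peak caller is not given in the sources used here, depth is unknown, and intervals cover counting error only.

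Gene positions came from Ensembl release 115 and sequence from RefSeq. Replicate peaks were matched by overlap of at least 1 bp. Tests were Fisher's exact or exact binomial, two-sided, with Benjamini-Hochberg adjustment at 0.05 and, for 7-mers, a pseudocount of 0.5 in odds ratios. They used Python 3.11.15 with scipy 1.17.1, and the 7-mer test was checked on simulated data. Pairs were named by signal, presence in both replicates and gene symbols, and list genes by highest signal. Members, lists and tests were chosen with earlier results of these data known. Alternatives were each replicate alone, peaks above the median signal, other windows, other 5' ends, other comparison summits and, added after seeing the data, a fixed range of GC.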

Additional observations from a re-analysis of the deposited data

How the results depend on the processing

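No paired analysis was possible because there was 1 group. The number of summits was 240 above the median signal and 295 with the window of 500 bp upstream to 100 bp downstream. Their share of promoter summits was 31.5% above the median signal, 23.0% in the narrow window, 32.8% with 2000 bp upstream and 30.3% with the outermost 5' end of each gene. The share of pairs with a summit was 11.4% above the median signal. Presence in both replicates turned round above the median signal (odds ratio 0.342, Fisher's exact test, adjusted p = 0.215), where nearly all peaks of both classes were strong in both replicates. CTGCGTC passed the threshold in the narrow window (odds ratio 0.580, Fisher's exact test, adjusted p = 0.0307) and at 35% to 50% GC (0.537, adjusted p = 0.0295). AATCRAT lost the call at 35% to 50% GC (0.726), where fewer summits were compared. The 7-mers called were 9 against one-strand summits as near to a 5' end and 2 at 35% to 50% GC. With each replicate alone, the values ranged from 413 to 441 summits, from 26.4% to 27.7% of promoter summits, from 3.27 to 3.48 for the density ratio and from 18.8% to 20.1% of pairs. They ranged from 0.537 to 0.767 for AATCRAT, from 0.703 to 0.931 for CTGCGTC, from 4.19 to 4.66 for AATCRAT against flanks and from 22 to 39 7-mers. Causes of these changes were not tested. Signal above the median (7 alternatives), the density ratio (6) and AATCRAT against flanks (10) kept their direction and side of the threshold in every alternative run. For the last, the sequence had been chosen on these same peaks.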
